A study of Rattus norvegicus with 24 samples.

Results

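The measurements concern 10 genes of cyclic nucleotide phosphodiesterases, the enzymes that break down cAMP and cGMP, in the rat thyroid: Pde4a, Pde4b, Pde4d, Pde7a and Pde8a, whose products act on cAMP, Pde1a, Pde2a, Pde3b and Pde10a, whose products act on both nucleotides, and Pde5a, whose product acts on cGMP. They were chosen by name, as the array features (probe sets, each a group of short probes for 1 transcript) whose only gene symbol in the platform annotation was 1 of these 10. This gave 15 probe sets of 31042 on the array, for 10 genes of 14217 with such a symbol. Each gene is described by its probe set of highest mean signal, and the other probe sets are reported beside it. Of the 10 genes, 9 passed a filter that left out the dimmest 40 percent of probe sets, and Pde5a did not.

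Thyroid RNA from adult male Sprague-Dawley rats was measured on 24 Affymetrix arrays in 8 groups of 3. At day 1 and again at day 14, the groups were controls on normal diet and normal water, rats on an iodine-deficient diet with normal water, rats on normal diet with perchlorate in the water, and rats given both. Perchlorate was supplied as 95 mg of its potassium salt in each liter of water for 1 or 14 days, and animals were housed for 2 months plus that time, on the deficient diet where one was given. The whole gland was used, so a lower or higher level in a group can come from the amount of RNA per cell or from the share of cells of a type, and the arrays cannot tell these apart. Nothing in the labels ties an array to 1 animal, so the p-values rest on how far these samples spread, and that spread may be technical.

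In thyroid follicular cells, thyrotropin from the pituitary binds its receptor and activates adenylyl cyclase, and the cAMP formed drives iodide uptake, hormone synthesis and growth of the gland. Phosphodiesterases end that signal, and cAMP is known to induce some of their genes, PDE4 forms among them, which gives the pathway a negative feedback. Perchlorate blocks iodide entry into the follicular cell by occupying its symporter, while the deficient diet reduces how much iodide reaches that cell. When thyroid hormone falls, the pituitary releases more thyrotropin.

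The start regions of the 3 genes called higher than control are shown here, to let the sequence before each gene be read beside its values. Each is 300 bases, from 250 before the start of a RefSeq transcript to 50 after it, on assembly GRCr8 and read 5′ to 3′ on the strand of the gene. RefSeq entries were found for 8 of the 10 genes, with 18 such regions in all. Pde4b has 2 of them, Pde8a and Pde1a have 1 each. The regions are, in the order shown, chr5:122028706-122029005 and chr5:122222323-122222622 for Pde4b, chr1:144575219-144575518 for Pde8a, all on the plus strand, and chr3:85431729-85432028 for Pde1a on the minus strand. Capitals mark TGACG, the core letters of the cAMP response element, which CREB-family transcription factors bind.
Pde4b start 1: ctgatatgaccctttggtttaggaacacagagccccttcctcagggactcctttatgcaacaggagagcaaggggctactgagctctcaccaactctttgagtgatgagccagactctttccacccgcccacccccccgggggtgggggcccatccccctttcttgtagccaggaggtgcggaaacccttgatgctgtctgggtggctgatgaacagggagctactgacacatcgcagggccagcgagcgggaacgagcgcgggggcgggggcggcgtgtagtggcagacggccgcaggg
Pde4b start 2: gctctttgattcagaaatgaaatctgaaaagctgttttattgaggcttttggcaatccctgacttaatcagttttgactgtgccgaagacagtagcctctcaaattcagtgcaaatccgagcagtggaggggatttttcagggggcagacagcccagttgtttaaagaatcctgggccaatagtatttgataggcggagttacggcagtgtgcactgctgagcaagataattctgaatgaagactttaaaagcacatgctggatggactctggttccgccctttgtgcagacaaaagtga
Pde8a start: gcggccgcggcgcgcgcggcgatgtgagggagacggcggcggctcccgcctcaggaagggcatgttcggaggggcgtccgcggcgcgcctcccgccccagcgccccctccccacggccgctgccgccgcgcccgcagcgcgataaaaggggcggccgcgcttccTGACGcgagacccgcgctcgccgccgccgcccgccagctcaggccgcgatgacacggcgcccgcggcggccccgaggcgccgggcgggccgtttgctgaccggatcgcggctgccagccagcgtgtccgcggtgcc
Pde1a start: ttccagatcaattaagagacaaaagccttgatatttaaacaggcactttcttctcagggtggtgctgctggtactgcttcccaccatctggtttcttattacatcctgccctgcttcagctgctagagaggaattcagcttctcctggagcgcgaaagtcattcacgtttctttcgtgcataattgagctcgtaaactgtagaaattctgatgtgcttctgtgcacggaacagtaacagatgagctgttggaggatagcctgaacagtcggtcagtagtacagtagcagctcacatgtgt

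The full element, TGACGTCA, was in 0 of the 18 regions, and in 1.83% of the 33469 RefSeq start regions of the same length. Its core, TGACG, was in 6 of 18, against 21.2% of all regions. Both strands were searched, and a full element would hold the core on each strand. The Pde8a region held 1 core, beginning at position -86 from the start, and neither Pde4b region nor the Pde1a region held any. The GC box, GGGCGG, which Sp-family factors bind, was in 12 of 18 regions against 33.1% of all, with 3 matches in the first Pde4b region, 1 in the second, 4 in that of Pde8a and 0 in that of Pde1a. A match is a description of the letters in the window only.

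All levels below are log2(intensity + 16) after quantile normalization between arrays, a ± is the SD over the 3 arrays of a group, and a fold change is a difference of group means on that scale. A gene is called, and said to rise or fall, at an adjusted p under 0.05 in limma, corrected by the Benjamini-Hochberg method across all 18625 tested probe sets. On these data 2 arrays of day 1 stood apart: in perchlorate replicate 18 of day 1 the median absolute difference of tested probe sets from the median of all other arrays was 0.675. For control replicate 22 of day 1 this was 0.287, and for every other array it was from 0.13 to 0.211. Where a difference given below for the brightest probe set of a member moves by over 1.5 times without 1 of them, the value without it is given too.

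Pde4b encodes a cAMP-specific phosphodiesterase of the PDE4 family, the enzymes inhibited by rolipram. It rose in all 3 treated groups of day 14, and at day 1 in the group with both treatments. The control arrays of day 1 read 8.57, 8.73 and 8.75, those of the deficient diet 8.98, 9.17 and 9.18, those of perchlorate 8.50, 8.57 and 8.89, and those of both treatments 9.46, 9.79 and 10.05. At day 14 the controls read 8.84, 8.85 and 9.001, the diet 9.64, 9.70 and 9.73, perchlorate 10.06, 10.26 and 10.31, and both treatments 10.24, 10.27 and 10.51. All 9 treated arrays of day 14 therefore lay above all 3 controls of that day, while the day 1 arrays with perchlorate alone lay within and around their controls.

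With both treatments Pde4b rose by 1.08 at day 1 (SE 0.15, limma adjusted p = 0.00132), a fold of 2.12, and by 1.44 at day 14 (SE 0.15, limma adjusted p = 6.75e-06), a fold of 2.72. With 14 days of perchlorate alone it rose by 1.31 (SE 0.15, limma adjusted p = 4.73e-05), a fold of 2.48. With the deficient diet alone it rose by 0.79 at day 14 (SE 0.15, limma adjusted p = 0.0296), a fold of 1.73, and by 0.61 over the mean of both days (SE 0.11, limma adjusted p = 0.00676). The diet difference at day 1, 0.43, did not pass (limma adjusted p = 0.615), although the 3 diet arrays lay above the 3 controls. The calls for perchlorate and for both treatments at day 14 and for the diet over both days held under every alternative setting tried. The diet call at day 14 was lost when any 1 of its 6 arrays was left out, with limma adjusted p between 0.0736 (without diet replicate 34) and 0.158 (without diet replicate 33). It was lost too with the mean of both Pde4b probe sets (limma adjusted p = 0.161). The day 1 call with both treatments was lost in a fit of only those 2 groups (limma adjusted p = 0.107).

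**Figure D1:**
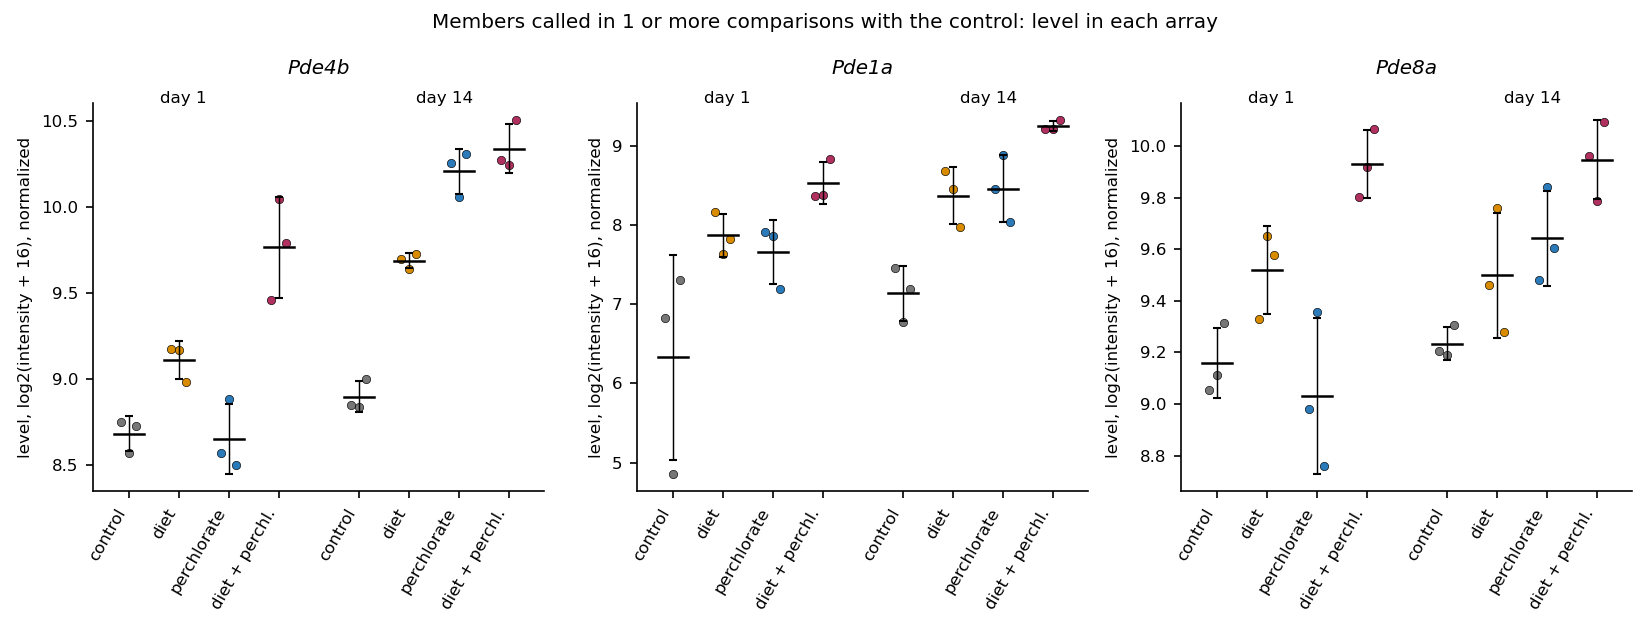
Level of Pde4b, Pde1a and Pde8a in each array, as log2(intensity + 16) after normalization, by treatment at day 1 and day 14; points are arrays, wide bars the mean and whiskers the SD of 3 arrays. Pde4b at day 14 runs from 8.90 in controls to 9.69 with the diet, 10.21 with perchlorate and 10.34 with both, and the axes do not start at 0.

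The effect of perchlorate on Pde4b differed between the days. On the normal diet the difference from control was -0.03 after 1 day (95% interval -0.34 to 0.29, limma adjusted p = 0.952) and 1.31 after 14 days. The difference between these effects was 1.34 (SE 0.21, limma adjusted p = 0.0044), and 1.32 without the 2 arrays that stood apart (limma adjusted p = 0.00925). It was lost with the mean of both probe sets (limma adjusted p = 0.056) and in a fit of only the groups compared (limma adjusted p = 0.0552). In that comparison 1 of the 9 tested members was called, against 0.553% of all probe sets tested.

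At day 1 Pde4b was also higher with both treatments than with perchlorate alone. The difference was 1.11 (SE 0.15, limma adjusted p = 0.00154), and 1.03 without the 2 arrays that stood apart (limma adjusted p = 0.00226). It was lost in a fit of only those 2 groups (limma adjusted p = 0.688). At day 14 the same comparison gave 0.13 (95% interval -0.18 to 0.45, limma adjusted p = 0.9998), and the arrays of the 2 groups overlapped. The tests of whether the effects add on the log scale did not pass: the interaction was 0.69 at day 1 (95% interval 0.24 to 1.13, limma adjusted p = 0.406) and -0.66 at day 14 (95% interval -1.10 to -0.22, limma adjusted p = 0.9997). These estimates have opposite signs. Limma called 0 of 9 members for either interaction (0.0107% of all probe sets at day 1 and 0.0161% at day 14). At an unadjusted p under 0.05 there were 3 and 2 members, and 1694 and 580 of 18625 probe sets.

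Adding perchlorate to the deficient diet moved Pde4b by 0.66 at day 1 (limma adjusted p = 0.234) and 0.65 at day 14 (limma adjusted p = 0.0784), with the arrays of both groups apart each time. Neither passed the test in the fit of all arrays. Without the 2 arrays that stood apart both did, with limma adjusted p = 0.0375 and 0.0268. Perchlorate alone stood 0.52 above the diet alone at day 14 in mean level, a difference that did not pass (diet minus perchlorate -0.52, 95% interval -0.83 to -0.21, limma adjusted p = 0.728), though all 3 perchlorate arrays lay above all 3 diet arrays.

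In the order of group means, Pde4b was lowest with perchlorate at day 1 (8.65 ± 0.20) and in the controls of day 1 (8.68 ± 0.10), then in the controls of day 14 (8.90 ± 0.09) and the diet at day 1 (9.11 ± 0.11). Above these came the diet at day 14 (9.69 ± 0.04), both treatments at day 1 (9.77 ± 0.29), perchlorate at day 14 (10.21 ± 0.13) and both treatments at day 14 (10.34 ± 0.14). Among neighbours in that order, the arrays did not overlap between the controls of days 1 and 14, between the diet at day 1 and at day 14, and between both treatments at day 1 and perchlorate at day 14. The controls of the 2 days differed by 0.21 (limma adjusted p = 1), and 0 of 18625 probe sets were called between them by limma, with 765 at an unadjusted p under 0.05.

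The second probe set for Pde4b, which was dimmer, moved the same way with a wider error. It read 6.58 ± 0.15 in the day 14 controls, 7.45 ± 0.19 with the diet, 7.85 ± 0.08 with perchlorate and 7.69 ± 0.02 with both. The differences were 0.86, 1.27 and 1.11 (SE 0.36), with limma adjusted p of 0.424, 0.0549 and 0.0604, so none was called, although the 3 arrays of each treated group lay above the controls. A test across all 8 groups called both probe sets, with limma adjusted p = 4.41e-07 for the brighter and 0.00172 for the dimmer. Over the 24 arrays the genes whose levels were most like those of Pde4b were Itih3, an inter-alpha-trypsin inhibitor heavy chain (Pearson r = 0.971), Ninl, a centrosomal protein (r = 0.957), and Cald1, the actin-binding caldesmon (r = 0.936). These correlations describe arrays that share the same groups and carry no p.

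Pde4d encodes another cAMP-specific PDE4 enzyme, and none of its differences from control was called. The controls of day 14 read 7.56, 8.31 and 8.45, the diet 8.30, 8.41 and 8.42, perchlorate 8.49, 8.67 and 8.74, and both treatments 8.60, 8.62 and 8.71. The arrays with perchlorate lay above all controls of the day, and 1 control, replicate 43, lay well below the other controls. The differences were 0.53 with perchlorate (SE 0.22, limma adjusted p = 0.245) and 0.54 with both (SE 0.22, limma adjusted p = 0.15). Without control replicate 43 they were 0.25 and 0.26 (limma adjusted p = 0.783 and 0.59). At day 1 both treatments read 8.26, 8.56 and 8.69 against 7.37, 7.98 and 8.10 in controls, a difference of 0.69 (SE 0.22, limma adjusted p = 0.213). The test across all 8 groups called Pde4d (limma adjusted p = 0.0438), and that call was lost under 19 of 34 alternatives, with a highest limma adjusted p = 0.099 without replicate 30 of both treatments at day 14. A second probe set gave 0.36 and 0.38 for the same comparisons at day 14, neither called, and the last fell below the filter.

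Pde4a, which encodes a further cAMP-specific PDE4 enzyme, was not called against any control. The perchlorate arrays of day 1 read 6.91, 7.30 and 7.999, above the controls at 6.86, 6.89 and 6.89, and the highest was replicate 18, the array that stood apart. With both treatments at day 1 it read 6.36, 6.60 and 6.63, below the controls. Between both treatments and perchlorate alone at day 1 it fell by 0.87 (SE 0.21, limma adjusted p = 0.0318). Without perchlorate replicate 18 that difference was -0.58 (limma adjusted p = 0.11), and it was lost without each of replicates 2, 3 and 6 of both treatments too (limma adjusted p = 0.0585, 0.0705 and 0.0939). Without both arrays that stood apart it was not called (limma adjusted p = 0.0947), nor with no filter on dim probe sets (0.0562) or when only the arrays of both groups were fitted (0.688). At day 14 the differences from control were between -0.09 and -0.02.

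Pde8a encodes a phosphodiesterase with high affinity for cAMP that rolipram does not inhibit. It rose with both treatments on either day. The day 1 arrays of both treatments read 9.80, 9.92 and 10.07 against 9.06, 9.11 and 9.31 in controls, and those of day 14 read 9.79, 9.96 and 10.09 against 9.19, 9.20 and 9.31, with no overlap on either day. The rise was 0.77 at day 1 (SE 0.17, limma adjusted p = 0.0301), a fold of 1.71, and 0.71 at day 14 (SE 0.17, limma adjusted p = 0.00846), a fold of 1.64. Perchlorate alone at day 14, at 9.48, 9.60 and 9.84, also lay above the controls, and its difference of 0.41 was not called (limma adjusted p = 0.228). The diet alone differed by 0.36 at day 1 and 0.27 at day 14 (limma adjusted p = 0.83 and 0.706), the latter 0.14 without diet replicate 33.

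The Pde8a calls were less steady than those of Pde4b. That of day 14 was lost without replicate 30 of both treatments (0.64, limma adjusted p = 0.0546), and that of day 1 without control replicate 21 or 22 or replicate 3 or 6 of both treatments (limma adjusted p between 0.0963 and 0.148) and in a fit of only those groups (limma adjusted p = 0.147). The second Pde8a probe set did not follow at day 14, where it read 7.05, 7.17 and 8.15 with both treatments and 7.24, 7.38 and 7.64 in controls, a difference of 0.04 (95% interval -0.76 to 0.83, limma adjusted p = 0.976). With the mean of both probe sets the day 14 difference was 0.38 (limma adjusted p = 0.381). At day 1 the second probe set differed by 1.37 (limma adjusted p = 0.124), with control replicate 22 at 4.83 far below the other controls at 6.69 and 7.09. This probe set was not refitted without replicate 22, which widens that difference. Against perchlorate alone at day 1, both treatments had a Pde8a level higher by 0.90 (SE 0.17, limma adjusted p = 0.0099), a call lost with the mean of both probe sets (limma adjusted p = 0.14) and when only the arrays of both groups were fitted (limma adjusted p = 0.688). Without the 2 arrays that stood apart this value was 0.76 (limma adjusted p = 0.0222).

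**Figure D2:**
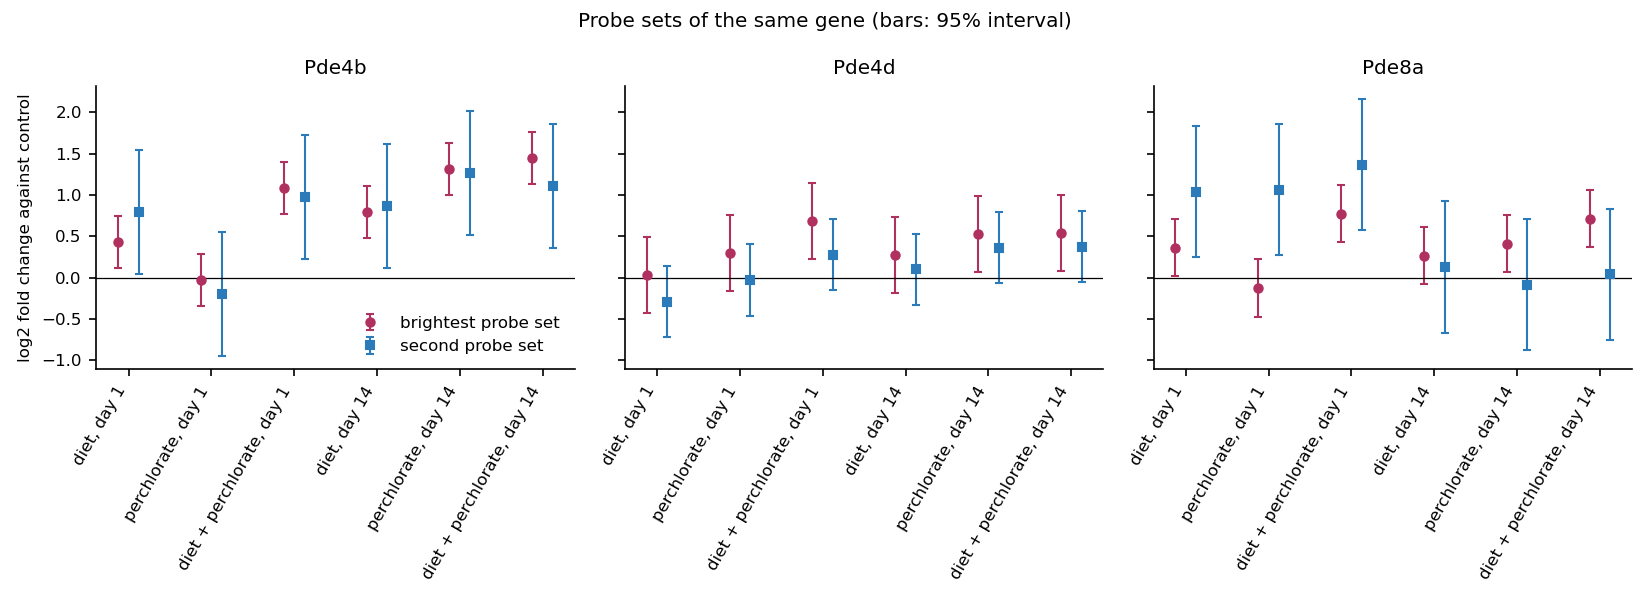
Log2 fold change against the control of the same day for the brightest (circles) and the second (squares) probe set of Pde4b, Pde4d and Pde8a, with 95% intervals. For Pde4b with both treatments at day 14 the brightest is at 1.44 and the second at 1.11, and for Pde8a with both treatments at day 14 the brightest is at 0.71 and the second at 0.04.

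Genes most like Pde8a over the arrays were Tnik, a kinase of the Ste20 group (r = 0.896), Myo5c, a class V myosin (r = 0.883), and Stim2, a calcium sensor of the endoplasmic reticulum (r = 0.88). For Pde4d they were Fbln2, Foxm1 and Creb5, at 0.735, 0.732 and 0.726, and for Pde4a they were Arl2, Sirt6 and Atp6v0e2, at 0.908, 0.875 and 0.869. Each is a Pearson correlation over 24 arrays of probe sets with 1 symbol, with no p.

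Pde7a, the last of the cAMP-specific group, was not called in any comparison, and its differences from control ran from -0.41 to 0.21. The lowest, with perchlorate at day 1, was 0.02 without perchlorate replicate 18 (limma adjusted p = 0.984). Its lowest value, 8.01, was in perchlorate replicate 18 of day 1, where the remaining arrays of the group read 9.29 and 9.32. Both treatments against perchlorate alone at day 1 gave 0.61 (limma adjusted p = 0.155), and 0.18 without perchlorate replicate 18 (limma adjusted p = 0.675). The comparison was called without perchlorate replicate 15 (0.82, limma adjusted p = 0.046) or 16 (0.84, limma adjusted p = 0.0482), each of which leaves replicate 18 a larger share of its group. It was called on the values as deposited too (0.95, limma adjusted p = 0.0331).

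Pde1a encodes a phosphodiesterase that calcium and calmodulin activate and that degrades both cAMP and cGMP. Its transcript was highest with both treatments. The controls of day 1 read 4.86, 6.83 and 7.31, the diet 7.64, 7.82 and 8.17, perchlorate 7.19, 7.86 and 7.92, and both treatments 8.37, 8.39 and 8.84. At day 14 the controls read 6.77, 7.19 and 7.46, the diet 7.98, 8.45 and 8.69, perchlorate 8.04, 8.46 and 8.89, and both treatments 9.21, 9.22 and 9.33. Every treated array of day 14 lay above every control of that day. The lowest control of day 1 was replicate 22, which gave that group an SD of 1.297.

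With both treatments Pde1a rose by 2.20 at day 1 (SE 0.41, limma adjusted p = 0.00914), a fold of 4.60, and by 2.11 at day 14 (SE 0.41, limma adjusted p = 0.002), a fold of 4.33. The day 14 call held under every alternative tried. That of day 1 was lost without replicate 6 of both treatments (2.04, limma adjusted p = 0.0615) and in a fit of only those groups (limma adjusted p = 0.241), and without the 2 arrays that stood apart it was 1.46 and kept (limma adjusted p = 0.00611). Over the mean of both days Pde1a rose by 1.39 with the diet alone (SE 0.29, limma adjusted p = 0.0226), or by 1.02 without those 2 arrays (limma adjusted p = 0.00436). That call was lost without day 1 diet replicate 12, day 14 diet replicate 32 or 33, or day 14 control replicate 44 (limma adjusted p between 0.0557 and 0.0721).

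Neither single treatment was called for Pde1a on a single day. The diet gave 1.54 at day 1 and 1.23 at day 14 (limma adjusted p = 0.31 and 0.242), and perchlorate gave 1.33 at day 1 and 1.32 at day 14 (limma adjusted p = 0.423 and 0.0784). Without control replicate 22 the day 1 differences were 0.81 with the diet and 0.59 with perchlorate (limma adjusted p = 0.982 and 0.485). Without the 2 arrays that stood apart, both of the day 14 differences were called, at nearly the same size (limma adjusted p = 0.0169 and 0.00179). For Pde1a the change in the effect of perchlorate from day 1 to day 14 was -0.003 (95% interval -1.20 to 1.19, limma adjusted p = 0.999). Leaving out 1 control of day 1 turned or moved that value: it was 0.73 without replicate 22, -0.25 without replicate 21 and -0.49 without replicate 24, and none was called by limma. The genes most like it were Mab21l3 (r = 0.85), Pex5l (r = 0.846) and Tmem26 (r = 0.845), over the same 24 arrays.

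Pde3b encodes a phosphodiesterase that cGMP inhibits and that is known for mediating insulin action in fat cells. At day 14 it read 7.24, 7.49 and 7.52 in controls, 7.51, 7.54 and 7.87 with the diet, 7.65, 7.73 and 7.89 with perchlorate, and 8.07, 8.12 and 8.15 with both. All 3 arrays of both treatments lay above all other arrays of that day. The difference of 0.70 was not called (SE 0.27, limma adjusted p = 0.114), and it was without the 2 arrays that stood apart (0.70, limma adjusted p = 0.0186) and in a fit of only those groups (limma adjusted p = 0.0101). At day 1 the difference with both treatments was -0.53 (limma adjusted p = 0.483) and the arrays overlapped. It was -0.27 without control replicate 22 and -0.28 without replicate 2 of both treatments. The change between the days, 1.23 (SE 0.37), did not pass (limma adjusted p = 0.279). The summed intensity of 11 adipocyte markers ran from 2773 to 4615 with both treatments at day 14 and from 5602 to 13035 in its controls, and its part in the Pde3b values was not tested.

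Pde2a, whose enzyme cGMP stimulates, lay between 9.38 and 9.47 with both treatments at day 14, just above its controls at 8.84, 9.22 and 9.34, a difference of 0.29 (limma adjusted p = 0.574), or 0.15 without control replicate 43. Its highest group mean was with perchlorate at day 14 (9.53 ± 0.34), where the arrays overlapped those of the controls. That difference was 0.40 (limma adjusted p = 0.55), or 0.22 without perchlorate replicate 42 and 0.25 without control replicate 43. With the diet at day 1 Pde2a lay below its controls (-0.46, limma adjusted p = 0.891), by -0.30 without control replicate 21. No difference of Pde2a was called.

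Pde10a, a phosphodiesterase of both nucleotides best known from the striatum, gave estimates of opposite sign on the 2 days, and none was called. The diet differed from control by 0.80 at day 1 and -0.94 at day 14, and perchlorate by 0.39 and -0.94. The day 1 values were 0.48 and 0.06 without control replicate 22. With perchlorate, that of day 1 was 0.66 without control replicate 21 and 0.03 without perchlorate replicate 16, and that of day 14 was -0.55 without perchlorate replicate 42. The arrays of day 14 read 7.95, 8.11 and 8.47 in controls, 6.85, 7.15 and 7.71 with the diet, 6.46, 7.46 and 7.78 with perchlorate, and 7.62, 7.97 and 8.33 with both. Both single treatments thus lay below all controls, while the arrays of both treatments overlapped them. The controls of the 2 days themselves differed by 1.08 (SE 0.37, limma adjusted p = 1, unadjusted p = 0.00828), and the controls of day 1, at 6.45, 7.21 and 7.62, all lay below those of day 14. The interaction at day 14 was 1.67 (95% interval 0.58 to 2.76, limma adjusted p = 0.9997). The second probe set for Pde10a fell below the filter.

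Pde5a, the cGMP-specific enzyme that sildenafil inhibits, had a mean level of 5.24 on its only probe set, under the filter at 6.19, and was not tested. Its arrays ran from 4.32 to 5.96 and the groups overlapped throughout.

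**Figure D3:**
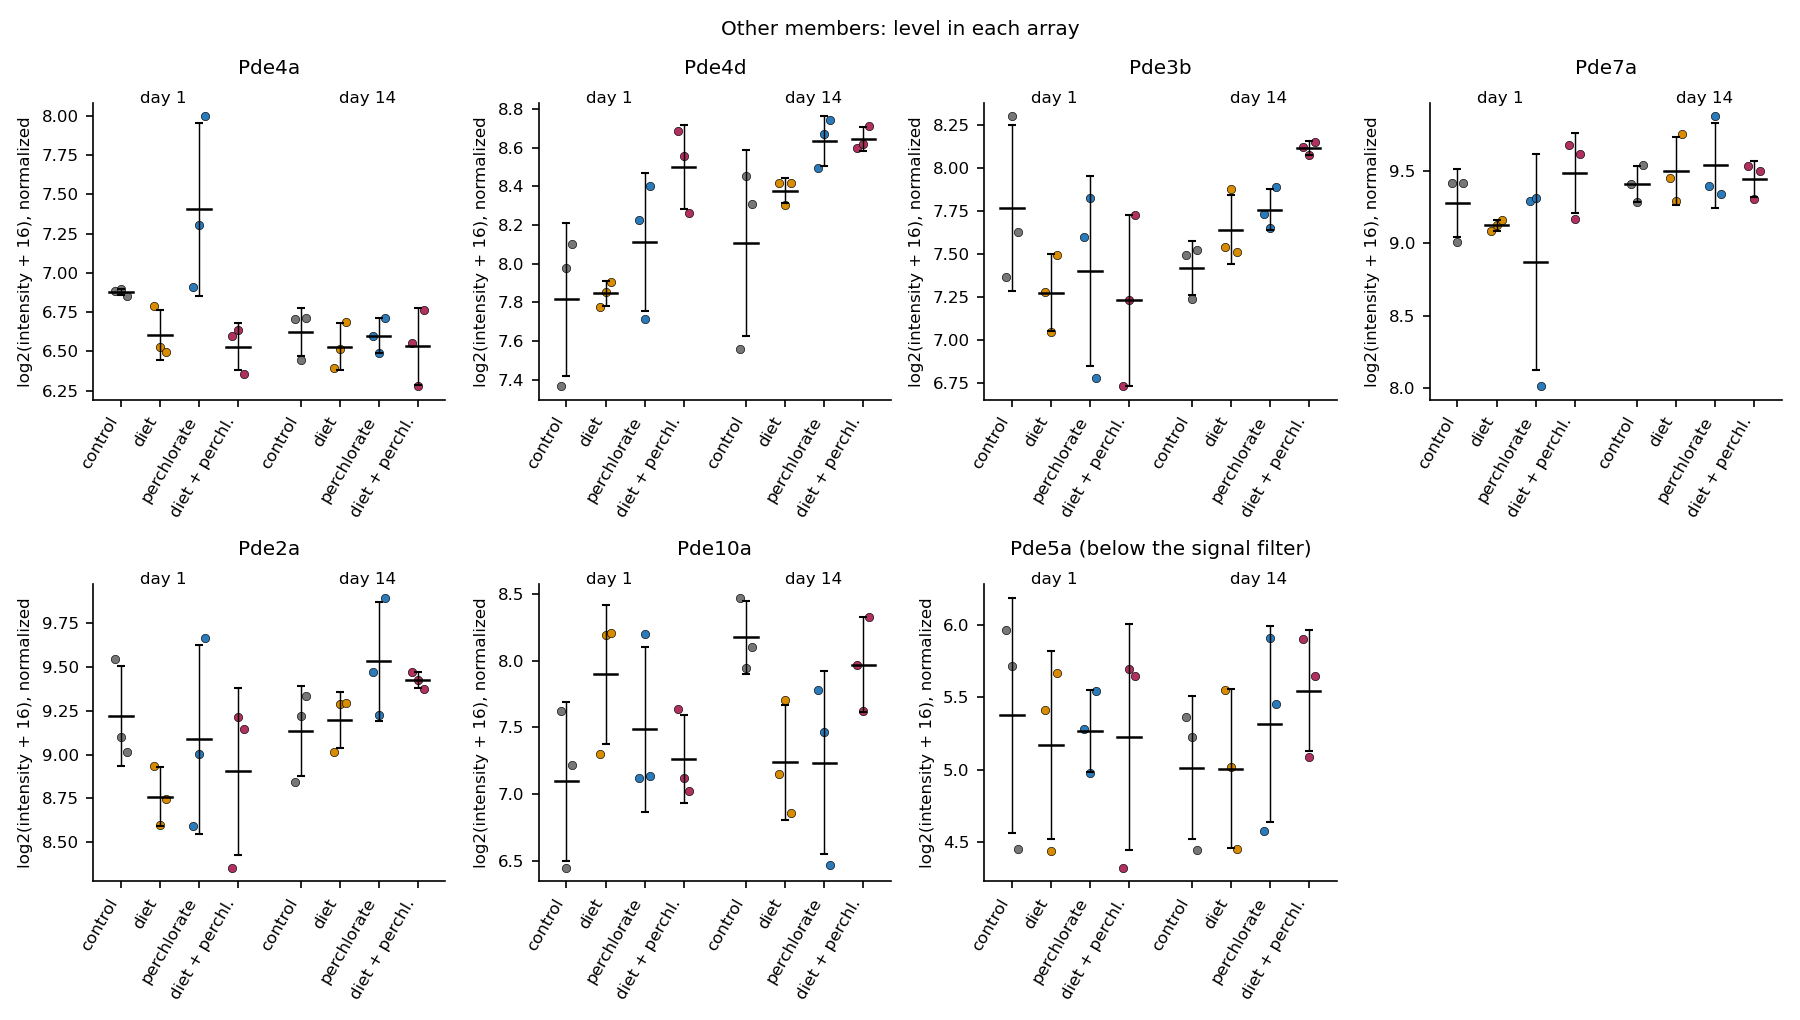
Level of the other 7 members in each array, as log2(intensity + 16) after normalization, by treatment at day 1 and day 14; points are arrays, wide bars the mean and whiskers the SD of 3 arrays, with a separate axis range per gene that does not start at 0. Pde4d and Pde3b reach 8.64 and 8.11 with both treatments at day 14, and Pde4a at day 1 of perchlorate includes the array at 7.999.

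Counted over the 9 tested members, 3 were called higher and 0 lower with both treatments at day 14, where limma called 8.85% of all probe sets. Another count was of members whose arrays did not overlap with the controls and lay above them: 6 of 9, against 16.2% of all probe sets. For 0 of 9 they lay below, against 20.7%. The median difference of the members was 0.54, beside -0.06 over all probe sets tested. With both treatments at day 1, 3 of 9 were called higher and 0 lower, against 0.601% of all probe sets, with 4 of 9 above their controls without overlap (7.94% of all), 1 of 9, Pde4a, below (9.76% of all), and a median of 0.21 beside -0.01. The members called, Pde4b, Pde1a and Pde8a, were the same on both days.

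With 14 days of perchlorate alone 1 of 9 members was called, Pde4b, against 3.57% of all probe sets. The arrays of 5 of 9 lay above the controls without overlap (12.6% of all), and those of 1, Pde10a, below (13.4% of all), and the median was 0.40 beside -0.04. With 1 day of perchlorate alone limma called 0 of 9 members and 0% of all probe sets, with 2 members, Pde1a and Pde4a, and 1888 of 18625 probe sets at an unadjusted p under 0.05. The arrays of 1 member, Pde4a, lay above the controls (2.92% of all) and those of 0 below (4.21% of all).

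With the deficient diet alone, limma called 0 of 9 members at day 1, against 0.0537% of all probe sets. At an unadjusted p under 0.05 there were 4 members that day, and 1090 of 18625 probe sets. Limma called 1 of 9 at day 14, against 0.22%, and 2 of 9 over the mean of both days, against 1.03%. The diet arrays lay above the controls without overlap for 3 of 9 members at day 1 (5.79% of all) and for 2 of 9 at day 14 (10.6% of all). They lay below for 2 of 9 at day 1 (6.54% of all) and for 1 of 9 at day 14 (11.2% of all). The median difference of the members was 0.03 at day 1 and 0.22 at day 14, beside 0.001 and -0.02 over all probe sets. All these comparisons share control arrays within a day, so their counts are not independent.

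**Figure D4:**
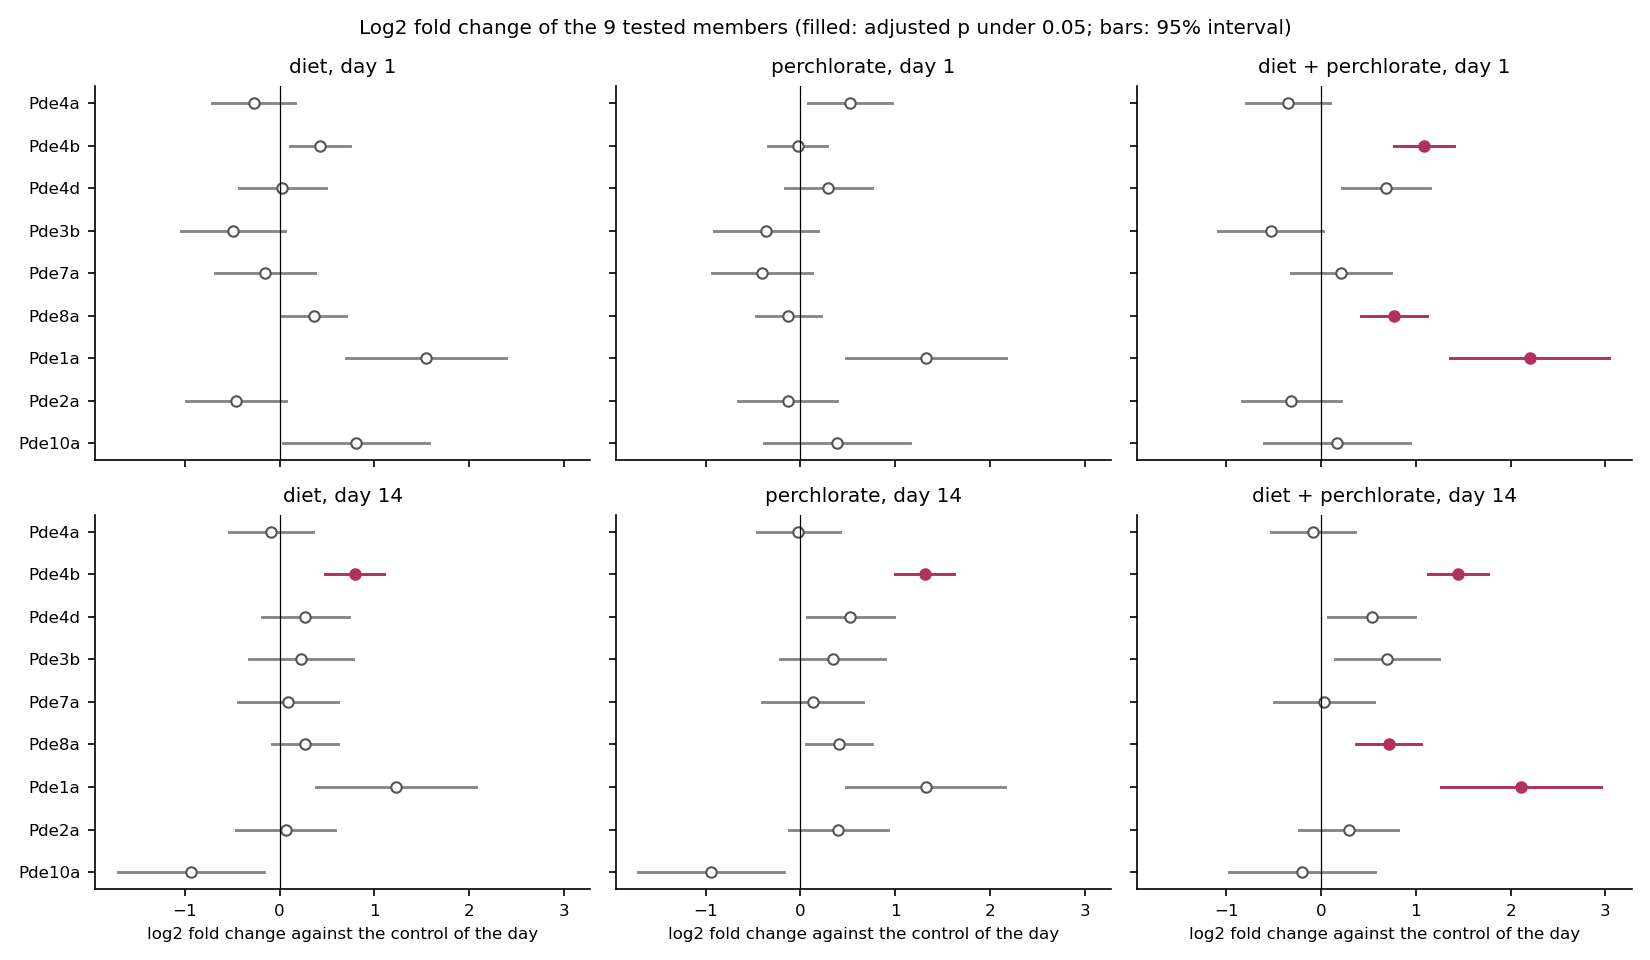
Log2 fold change of the 9 tested members against the control of the same day for each treatment, with 95% intervals; filled points have a limma adjusted p under 0.05. Pde4b, Pde8a and Pde1a are filled with both treatments on either day, and Pde4b alone with the diet or perchlorate at day 14.

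Other comparisons called few or no members. Between both treatments and the diet alone limma called 0 of 9 at day 1 (0.00537% of all probe sets) and 0 of 9 at day 14 (0.209%). At an unadjusted p under 0.05 there were 3 members each time, and 1087 and 1482 of 18625 probe sets. Between both treatments and perchlorate alone limma called 2 higher and 1 lower of 9 at day 1 (3.66% of all) and 0 at day 14 (0.00537%). At day 14 there were 0 members at an unadjusted p under 0.05, and 483 of 18625 probe sets. Between the diet and perchlorate at day 14 limma called 0 (0.00537%). There 1 member, Pde4b, was at an unadjusted p under 0.05, and 693 of 18625 probe sets. The test across all 8 groups called 4 of 9, Pde4b, Pde1a, Pde8a and Pde4d, against 7.8% of all probe sets. The Pde8a call was lost with the mean of its probe sets (limma adjusted p = 0.0607).

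No other gene named as a phosphodiesterase was called. Of 12 such others on the array, taken by name and not by enzyme activity, 5 passed the filter, Pde1b, Pde1c, Pde4c, Pde6d and Pde6g. Limma called 0 of them in every comparison. At an unadjusted p under 0.05 there was 1 for 14 days of perchlorate, against 2684 of 18625 probe sets. For both treatments at day 14 there were 0, against 4036. The largest day 14 difference was that of Pde1b with perchlorate, 0.57 (limma adjusted p = 0.264), and with both treatments it was 0.28. Pde4c, the fourth gene of the PDE4 family, differed by 0.01 with both treatments at day 14 (limma adjusted p = 0.987).

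On the side of cAMP synthesis, 1 of 5 tested adenylyl cyclase genes was called, Adcy4, which rose by 0.96 with both treatments at day 14 (SE 0.27, limma adjusted p = 0.0256), from 6.69 to 7.65. The other 4 were not called, and limma called 8.85% of all probe sets in that comparison. Of 9 tested subunits and inhibitors of protein kinase A, the kinase that cAMP activates, limma called 0 against control. At an unadjusted p under 0.05 with both treatments at day 14 there were 4036 of 18625 probe sets and 1 of these genes. That was the kinase inhibitor gene Pkia, at 0.62 (limma adjusted p = 0.116), and 0.73 with perchlorate (limma adjusted p = 0.105). That gene passed the test across all 8 groups (limma adjusted p = 0.0208). Both treatments against perchlorate alone at day 1 called the regulatory subunit gene Prkar1b lower (-0.84, limma adjusted p = 0.0478). Limma called 3.66% of all probe sets in that comparison. The comparison includes the perchlorate array of day 1 that stood apart, and Prkar1b was not refitted without it.

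Of 10 tested genes of A-kinase anchoring proteins, scaffolds that hold protein kinase A and often a phosphodiesterase, 1 was called, Akap12, which rose by 0.73 with the diet over the mean of both days (SE 0.18, limma adjusted p = 0.0483). Limma called 1.03% of all probe sets in that comparison. The comparison includes control replicate 22 of day 1, which stood apart, and Akap12 was not refitted without it. Of 16 tested effectors of cAMP and genes that cAMP induces, 2 were called with both treatments at day 14, beside 8.85% of all probe sets called there. These were the immediate early transcription factor genes Fos, which rose by 1.25 (SE 0.37, limma adjusted p = 0.0356), and Egr2, which rose by 1.27 (SE 0.26, limma adjusted p = 0.00317). The median of the 16 was 0.19, beside -0.06 over all genes.

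On the cGMP side both subunit genes of soluble guanylyl cyclase, the nitric oxide receptor that makes cGMP, rose at day 14. Gucy1a1 rose by 1.38 with perchlorate (SE 0.28, limma adjusted p = 0.00804) and by 1.36 with both treatments (SE 0.28, limma adjusted p = 0.00384), from 9.32 in controls to 10.69 and 10.68. Gucy1b1 rose by 1.24 (SE 0.33, limma adjusted p = 0.0375) and 1.30 (SE 0.33, limma adjusted p = 0.0151). The other tested genes of that list, the natriuretic peptide receptors Npr1 and Npr2, did not pass, at -0.24 and 0.49 with both treatments (limma adjusted p = 0.667 and 0.0602). Soluble guanylyl cyclase is abundant in vascular smooth muscle and pericytes, and markers of those cells were called higher in the same groups. Their part in the Gucy1a1 and Gucy1b1 values was not tested.

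**Figure D5:**
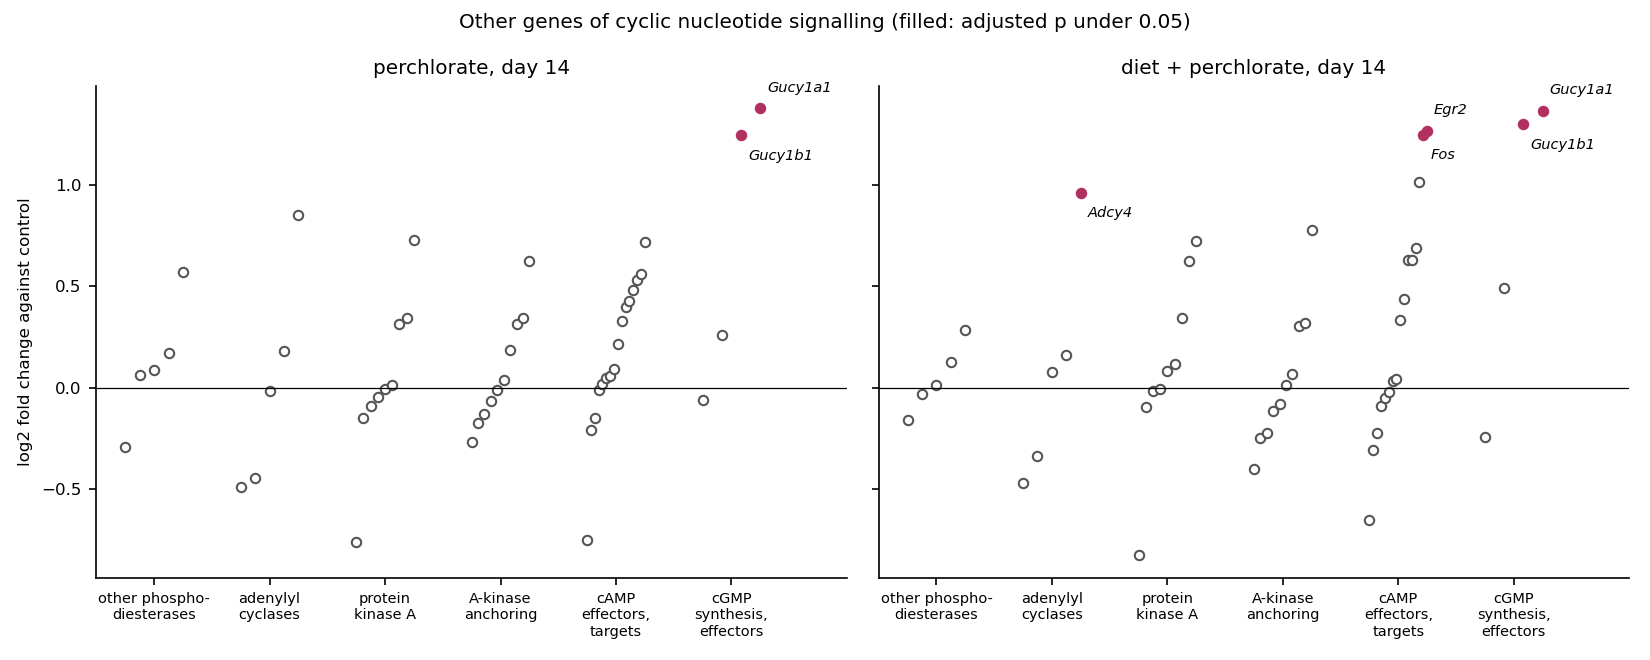
Log2 fold change at day 14 with perchlorate (left) and with both treatments (right) for the tested genes of 6 lists of cyclic nucleotide signalling, sorted within a list; filled points have a limma adjusted p under 0.05 and are named. Of the other genes named as phosphodiesterases 0 of 5 are filled, and the 2 soluble guanylyl cyclase genes stand between 1.24 and 1.38 on both sides.

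Markers of other cell types were called in the day 14 groups in which Pde4b rose. For the diet alone there was 1 call in the endothelial, smooth muscle, macrophage and fibroblast lists. With both treatments 9 of 11 endothelial, 8 of 10 smooth muscle and pericyte, 8 of 10 macrophage and 5 of 8 fibroblast markers were called higher by limma. Of 6 C cell markers 3 were called lower, and limma called 8.85% of all probe sets in that comparison. With perchlorate alone the counts were 6, 5, 3 and 3 higher, in the same order, against 3.57% of all probe sets called. With the diet alone at day 14 limma called 0 of 11, 0 of 10, 1 of 10 and 0 of 8, against 0.22% of all probe sets. At an unadjusted p under 0.05 there were 6, 6, 8 and 3, against 1772 of 18625 probe sets. The summed intensity of the endothelial markers ran from 11676 to 15817 in the controls of day 14, from 19518 to 26283 with the diet, from 23338 to 32316 with perchlorate and from 29492 to 32825 with both. That of the smooth muscle markers ran from 3851 to 4927 in controls, from 6526 to 8754 with the diet, from 8487 to 13112 with perchlorate and from 12123 to 14167 with both. Mast cell marker sums ran from 928 to 1377 in controls and from 1454 to 2912 with the diet. With perchlorate they ran from 1758 to 6322, and with both from 1656 to 3395. Parathyroid marker sums ran from 20764 to 21226 in controls and from 15856 to 17531 with the diet. With perchlorate they ran from 15063 to 16677, and with both from 12304 to 17880. The 8 tested follicular cell markers had a median of -0.06 with both treatments, with 1 called higher and 1 lower. The summed intensity of the 9 on the array, tested or not, ran from 43813 to 44188 in controls and from 44988 to 47830 with both. The part of these cell types in the values of the phosphodiesterase genes was not tested.

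At day 1, where Pde4b, Pde1a and Pde8a also rose with both treatments, limma called 0 of 11 endothelial, 0 of 10 smooth muscle, 0 of 10 macrophage and 0 of 8 fibroblast markers in that comparison, with 4, 1, 0 and 0 at an unadjusted p under 0.05. Of all 18625 probe sets limma called 0.601% there, and 1975 were at an unadjusted p under 0.05. Of 8 follicular markers 1 was called higher, with 3 at an unadjusted p under 0.05. Limma called 0 of 10 adipocyte and 0 of 6 C cell markers, with 7 and 2 at an unadjusted p under 0.05 and medians of -1.53 and -0.69. The sum of the 11 adipocyte markers on the array ran from 1885 to 15099 with both treatments and from 10024 to 28389 in controls. Its part in the rise of the 3 members was not tested. The endothelial sum read 10793, 29362 and 22206 in replicates 2, 3 and 6 of both treatments, against 12483 to 16451 in controls. The smooth muscle sum read 3409, 10965 and 7232 in the same arrays, against 5042 to 6221 in controls. Each time replicate 2 lay below all controls, and replicates 3 and 6 lay above them. The part of these cell types in the rise of the 3 members was not tested. Of 95 marker genes on the array 0 were at 0 on any array, and 11 fell below the filter. In the perchlorate group of day 1 the summed lymphocyte markers read 800 in replicate 16, 4240 in replicate 18 and 11185 in replicate 15, against 840 to 1180 in controls. Pde4b in those arrays was 8.89, 8.50 and 8.57, in the same order, and the part of lymphocytes in these values was not tested.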

How the data were processed

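Thyroid RNA was measured on 24 arrays, 3 in each of 8 groups that the labels name. The values are the intensity of each probe set as the authors deposited it, and GCOS is the tool that the submitters' processing notes name, with version and scaling not given in the sources used here. Array medians spanned 0.558 on the log2 scale, above the 0.5 set for normalizing, so log2(intensity + 16) was quantile normalized between arrays. The 57 control probe sets were left out, as were the lowest 40 percent by mean signal, which left 18625 probe sets.

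Limma 3.58.1 in R 4.3.3 fitted 1 mean per group over all arrays, with a mean-variance trend, and gave 15 comparisons. Another 4 were added after seeing the data: the diet effect and the effect of both treatments at day 14 minus day 1, both treatments against perchlorate alone at day 1, and the interaction at day 1. Tests were two-sided and p-values were adjusted by Benjamini-Hochberg over all probe sets tested. The method was tested on simulated data. Arrays within a group correlated at 0.851 to 0.98, and 0 pairs were identical. Array precision is limited by the number of arrays.

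The 10 member genes are all described. Of the other lists, genes called in at least 1 comparison were named, at most 4 per list and comparison, and for called members the 3 probe sets most correlated with each. The other phosphodiesterase genes that passed the filter, Npr1 and Npr2 fall outside that rule and were chosen after their values were seen. Members and lists were chosen with earlier results of these data known. Alternatives covered normalization, pseudocount, filter, probe set, array weights, arrays in the fit and each array left out, and were read for the member genes only.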

Additional observations from a re-analysis of the deposited data

Results flagged for a closer look

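The effect of perchlorate on Pde4b differed between 1 and 14 days of treatment by a test of the difference itself. Perchlorate minus control on the normal diet was 1.31 at day 14 and -0.03 at day 1 on the log2 scale, and the effect at day 14 minus that at day 1 was 1.34 (95% interval 0.90 to 1.79, limma adjusted p = 0.0044). All 3 perchlorate arrays lay above the controls at day 14, and the arrays overlapped at day 1. The call was lost with the mean of both Pde4b probe sets (1.41, limma adjusted p = 0.056) and in a fit of only the groups compared (1.34, limma adjusted p = 0.0552).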

How the results depend on the processing

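Of 162 member results tested, 14 were called, and 4 of these held under every alternative run: Pde4b with perchlorate and with both treatments at day 14 and with the diet over both days, and Pde1a with both treatments at day 14. The tests of Pde4b and Pde1a across all groups held too. Another 8 results were called under some alternative, and 140 under none, of which 56 changed sign somewhere. With array weights, whose estimate did not fully converge, the members called went from 4 to 8 across all groups, from 1 to 2 for the diet and for perchlorate at day 14, and from 0 to 1 (day 1) and 2 (day 14) for both treatments against the diet. In fits of only the groups compared they fell from 3 to 0 for both treatments against control and against perchlorate at day 1, and from 1 to 0 for perchlorate at day 14 minus day 1. In those fits they went from 1 to 2 for the diet and for perchlorate at day 14, and from 0 to 2 for both treatments against the diet at day 14. With the mean of probe sets they went from 1 to 0 for the diet at day 14 and for perchlorate at day 14 minus day 1. That setting also lost Pde8a for both treatments at day 14, for both treatments against perchlorate at day 1, and across all groups. For both treatments at day 14 Pde3b was gained with array weights, in the fit of only those groups, and without the 2 arrays that stood apart. A pseudocount of 64 gave 2 for perchlorate at day 14. Without the 2 arrays that stood apart they were 2 for the diet and for perchlorate at day 14, and 1 on each day for both treatments against the diet. Leaving out 1 array gave 1 to 3 for both treatments at day 1, 0 in each case for the diet at day 14, and 1 to 2 for the diet over both days. No result reversed a call. No paired analysis was possible because the groups share no sample numbers. With 3 arrays a group, a difference not called is not shown to be absent, and differences well above the SE given could also fail to pass. That of Pde1a with perchlorate at day 14 was 1.32 (limma adjusted p = 0.0784). Dim probe sets such as that of Pde5a were not tested.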
